A study of Mus musculus with 4 samples.

Results

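The variable (V) segments of the immunoglobulin heavy chain (Ighv) and kappa light chain (Igkv) were followed in mouse bone marrow by single-cell RNA sequencing. Members were all genes whose symbol starts with Ighv or Igkv followed by a digit, which gave 343 of the 33696 genes measured: 183 Ighv and 160 Igkv segments. In the GENCODE M21 annotation 113 Ighv segments are V genes and 70 are pseudogenes, and 100 Igkv segments are V genes and 60 are pseudogenes. Their unique molecular identifier (UMI) counts were taken in cells with at least 500 genes, at least 1000 UMIs, at most 10% mitochondrial UMIs and at least 2 UMIs of Cd79a, a signalling subunit of the B cell receptor.

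The marrow came from lethally irradiated mice that had received a mixture of CD45.1+ Tet2+/+ and CD45.2+ Tet2+/- cells. Only CD45.2+ cells were sequenced, so cells of every group carried the Tet2+/- genotype, and Tet2 encodes an enzyme that oxidises methylated cytosine in DNA. After 1 month of engraftment the mice were treated for 7 months. The B12+Butyrate group had 0.29 µg of vitamin B12 by injection into the abdomen 2 times a week and 100 mM sodium butyrate in the drinking water. The B12 group had the same injections and 100 mM NaCl in the water. The Butyrate group had PBS injections and 100 mM sodium butyrate, and the Control group had PBS injections and 100 mM NaCl. Each group is 1 library made from 3 pooled mice, which cannot be told apart in it, and in which sorted Kit+ and Kit- cells were combined 50:50. The animals' ages and the kind of Tet2 allele are not given in the sources used here. With 1 library per group no test between treatments was possible, and bracketed values are exact 95% binomial intervals that cover counting error only.

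A B cell builds its heavy chain by joining 1 V segment to D and J segments, and its light chain by joining 1 V segment to a J segment. Each mature B cell therefore normally uses a single heavy V segment and a single light V segment. Resting B cells that have not met antigen carry surface IgM and IgD and use many different segments, while antibody-secreting cells make very large amounts of 1 heavy and 1 light chain. Ighd encodes the constant region of IgD, so Ighd-positive cells (at least 1 Ighd UMI) were set against Ighd-negative cells (no Ighd UMI). Jchain, which links IgM and IgA into multimers, is a marker of antibody-secreting cells. The libraries read the 3′ ends of transcripts, whereas the V segment lies at the 5′ end of the chain's transcript. The junctions between segments are not in the gene counts, so cells that share V segments cannot be called members of 1 clone.

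Cells that met all filters numbered 1079 in B12+Butyrate, 499 in B12, 1025 in Butyrate and 936 in Control, of which 915, 406, 865 and 753 were Ighd-positive and 164, 93, 160 and 183 were Ighd-negative. Median UMIs per cell were 5502, 4803.5, 5187 and 5267 in the Ighd-positive cells and 6508.5, 5195, 6223.5 and 5818 in the Ighd-negative cells. Ms4a1 (CD20, a mature B cell marker) was detected in 85.7% to 92.3% of Ighd-positive cells and in 68.9% to 80.6% of Ighd-negative cells. All 6 mature B cell markers had UMIs in both classes of every library, with a summed level of 1653 to 1895 CPM (UMIs scaled to the same total in every library and class) in Ighd-positive cells and 929.8 to 1122 CPM in Ighd-negative cells. RNA of neutrophils was present in both classes of B cells: S100a8 UMIs were found in 69.5% to 80.5% of Ighd-positive and 71.9% to 84.2% of Ighd-negative cells, and the 6 neutrophil markers summed to 38004 to 44436 CPM and 21144 to 67293 CPM. The part of this RNA in the V segment values of B cells was not tested. V segment UMIs found in neutrophils themselves are given below. Among 31116 filtered cells, 93 barcode sequences occurred in 2 or more libraries.

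The 3 heavy and 3 light segments below formed the most repeated pairs in cells with at least 10 Jchain UMIs, and their sequences are shown because the results on dominance turn on these pairs. Each is a 66-base stretch of the GENCODE M21 transcript (GRCm38, sense strand, 5′ to 3′), from chromosome 12 for the heavy and chromosome 6 for the light segments. Capitals mark the TGT codon of the conserved cysteine that precedes the junction with the next segment.
Ighv9-3: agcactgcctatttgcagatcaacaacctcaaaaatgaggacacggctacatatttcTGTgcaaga
Igkv3-5: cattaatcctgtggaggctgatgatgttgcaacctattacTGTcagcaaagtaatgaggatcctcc
Ighv11-2: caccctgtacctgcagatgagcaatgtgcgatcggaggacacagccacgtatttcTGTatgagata
Igkv14-126: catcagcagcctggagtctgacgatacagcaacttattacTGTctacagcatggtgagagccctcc
Ighv14-4: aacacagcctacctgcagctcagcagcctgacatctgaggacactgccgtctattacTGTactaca
Igkv6-20: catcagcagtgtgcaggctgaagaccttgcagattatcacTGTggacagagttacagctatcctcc
Segments can be near copies of each other: 76 of 183 Ighv and 63 of 160 Igkv transcripts have another member at 95% identity or more, and values of such members are uncertain to the extent that reads were assigned between them. Ighv11-2, Igkv6-20, Igkv3-5 and Ighv14-4 are among them, with a nearest member at 98.9%, 98.7%, 98.3% and 97.4% identity. Ighv9-3 and Igkv14-126 are not. Igkv1-110 and Igkv1-117, named below, are 97.5% identical to each other.

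In Ighd-positive cells, V segment UMIs were few per cell and spread over many segments. An Ighv UMI was found in 28.9% (25.9 to 31.9) of these cells in B12+Butyrate, 21.4% (17.5 to 25.7) in B12, 26.8% (23.9 to 29.9) in Butyrate and 26.2% (23.1 to 29.5) in Control. An Igkv UMI was found in 38.9% (35.7 to 42.2), 35.7% (31.0 to 40.6), 37.9% (34.7 to 41.2) and 36.5% (33.1 to 40.1). The Ighv share was lowest in B12, with an interval under that of B12+Butyrate and overlapping those of Butyrate and Control. B12 cells were also the shallowest, and the part of depth was not tested. The Igkv intervals of all 4 libraries overlapped. Most of these cells had 1 UMI of the chain: 191 of 264, 69 of 87, 181 of 232 and 149 of 197 cells with an Ighv UMI.

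Of the 343 segments, 105 Ighv and 108 Igkv were detected in Ighd-positive cells, and 40 Ighv and 37 Igkv were detected in all 4 libraries. The Igkv segments were used unevenly. Igkv1-110 was detected in 3.50%, 4.68%, 4.05% and 2.92% of Ighd-positive cells in B12+Butyrate, B12, Butyrate and Control, and Igkv1-117 in 3.83%, 2.46%, 2.66% and 4.12%. Igkv2-109 followed at 2.95%, 3.69%, 3.47% and 2.92%, and Igkv2-107, annotated as a pseudogene, at 1.97%, 1.97%, 3.01% and 3.32%. These 4 segments led in mean share over the libraries, and the intervals of each overlapped between all 4 libraries. No other light segment reached their mean shares.

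Ighv usage was flatter. The most often detected heavy segment, Ighv3-6, was found in 1.53%, 1.48%, 1.39% and 1.06% of Ighd-positive cells in the same order, and Ighv1-26 in 1.64%, 0.985%, 1.04% and 1.33%. The Ighv1 family, the largest by number of segments, took 45.6% to 51.9% of Ighv detections over the 4 libraries and holds 50.3% of the Ighv segments. Several Igkv families departed from their size, counted with pseudogenes. Igkv1 took 20.7% ± 1.93 of Igkv detections (SD, n = 4 libraries) with 8.13% of the segments. Igkv2 took 14.9% ± 1.28 with 6.25%, and Igkv19 took 3.18% ± 1.04 with 0.625%. On the other side, Igkv4 took 6.27% ± 1.89 with 20.6% of the segments, and Igkv13 took 1.08% ± 0.290 with 11.25%. The order of families is a description, since segments within a family share sequence.

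**Figure D1:**
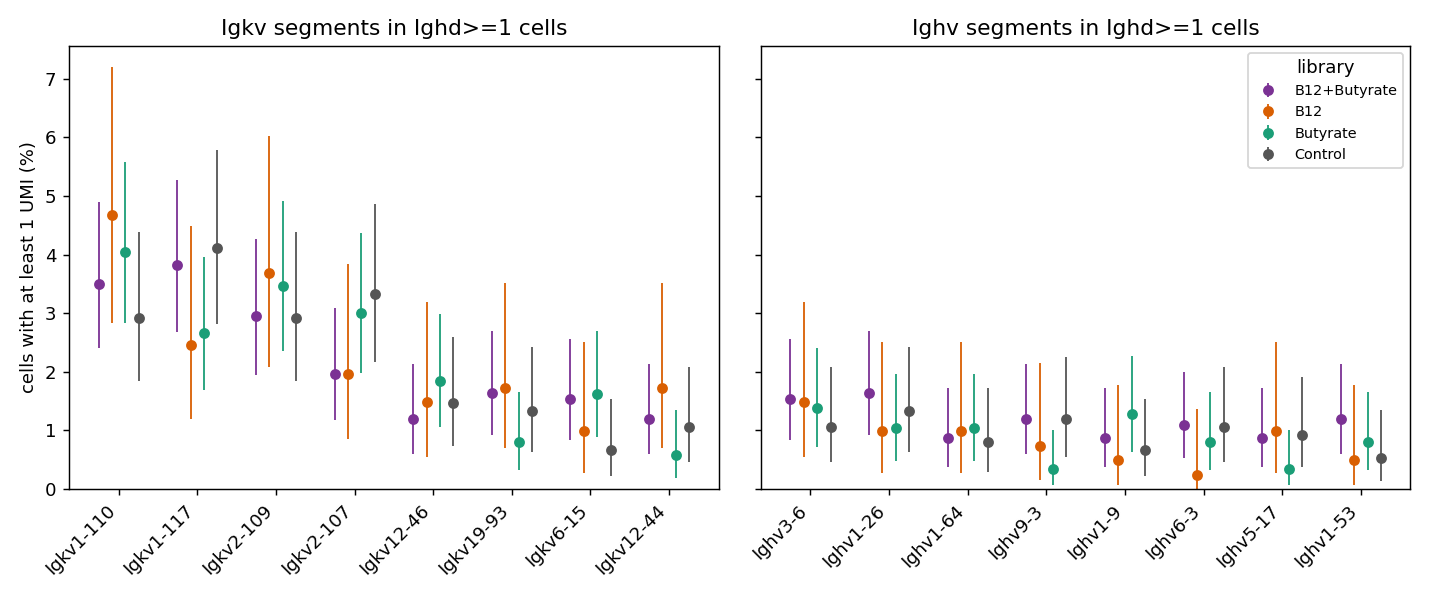
Share of Ighd-positive cells with at least 1 UMI of each of the 8 most often detected Igkv (left) and Ighv (right) segments. Points are single libraries and bars are exact 95% binomial intervals. Igkv1-110, Igkv1-117, Igkv2-109 and Igkv2-107 stand above the other light segments, and the intervals of the libraries overlap for each of these 4.

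Some Ighd-positive cells held UMIs of more than 1 light segment. Igkv2-109 and Igkv2-107, which lie 2 rows apart in the gene list, were detected together in 14 of 2932 Ighd-positive cells with fewer than 10 Jchain UMIs, in 4, 2, 4 and 4 cells of B12+Butyrate, B12, Butyrate and Control. That is 14.9% of the 94 cells with Igkv2-109 and 18.4% of the 76 cells with Igkv2-107, against 2.59% and 3.21% of all 2932 cells holding the partner. Igkv6-20 and Igkv8-19 were together in 4 cells, 16.7% and 14.8% of their cells, against 0.921% and 0.819% of all cells holding the partner. Igkv2-107 and Igkv12-44, 80 rows apart, were together in 5 cells, 6.58% and 16.1% of theirs, against 1.06% and 2.59%. Igkv1-117 and Igkv1-110 were together in 4 cells, 4.04% and 3.70% of their cells. High co-detection was therefore not particular to Igkv2-109 and Igkv2-107. Among cells with at least 3 Igkv UMIs, those with at least 80% on 1 segment (single-segment cells) made up 60.0% (46.5 to 72.4), 66.7% (43.0 to 85.4), 42.6% (28.3 to 57.8) and 56.4% (39.6 to 72.2) of Ighd-positive cells. In Ighd-negative cells the share was 69.2% (38.6 to 90.9), 80% (44.4 to 97.5), 68.2% (45.1 to 86.1) and 75.0% (53.3 to 90.2). The class means were 56.4% ± 10.2 and 73.1% ± 5.49 (SD, n = 4 libraries each), with the Ighd-negative share higher in 4 of 4 libraries and an exact paired permutation p of 0.13 (two-sided), the smallest that 4 pairs allow. Without cells of at least 10 Jchain UMIs the Igkv shares were 57.1%, 66.7%, 42.6% and 52.8% in Ighd-positive and 50%, 66.7%, 61.5% and 44.4% in Ighd-negative cells, higher in the Ighd-negative cells of 1 of 4 libraries. For Ighv the single-segment share was 87.1% ± 12.6 in Ighd-positive and 91.8% ± 6.98 in Ighd-negative cells (exact p = 0.75).

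Single-segment cells were too few for precise shares per library. Igkv1-117 was held by 11 of 36 (30.6%, 16.3 to 48.1), 2 of 14 (14.3%, 1.78 to 42.8), 5 of 20 (25.0%, 8.66 to 49.1) and 10 of 22 (45.5%, 24.4 to 67.8) single-segment Ighd-positive cells in B12+Butyrate, B12, Butyrate and Control. It was a top segment in every library, tied with others in B12 and Butyrate. The B12 share lay 31.2 points under that of Control, with overlapping intervals. Igkv1-110 followed with 8, 2, 5 and 3 of these cells. Among single-segment Ighd-negative cells, Ighv9-3 was held by 2 of 5, 1 of 6, 1 of 9 and 5 of 15, and Igkv6-20 by 1 of 9, 3 of 8, 2 of 15 and 1 of 18. The effective number of Igkv segments, the inverse of the chance that a pair of these cells hold the same segment, averaged 10.9 ± 8.11 in Ighd-positive and 14.8 ± 14.2 in Ighd-negative cells (SD, n = 4 libraries each). For Ighv no segment was most frequent in more than 3 of 21 cells in B12+Butyrate, 1 of 4 in B12, 1 of 7 in Butyrate or 2 of 10 in Control. The Ighv1 family held 52.4% (29.8 to 74.3), 25.0% (0.631 to 80.6), 42.9% (9.90 to 81.6) and 30% (6.67 to 65.2) of those cells.

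With Jchain-rich cells (at least 10 Jchain UMIs) included, V segment UMIs were more abundant in Ighd-negative cells. Summed Ighv UMIs came to 60.1, 42.1, 45.5 and 54.7 CPM in Ighd-positive cells of B12+Butyrate, B12, Butyrate and Control, against 104, 146, 223 and 251 CPM in Ighd-negative cells. The means were 50.6 ± 8.28 CPM in Ighd-positive and 181 ± 67.8 CPM in Ighd-negative cells. Igkv averaged 95.2 ± 15.1 CPM in Ighd-positive and 454 ± 310 CPM in Ighd-negative cells (SD, n = 4 libraries each). The most abundant segment took 7.96% ± 3.64 of Ighv UMIs in Ighd-positive and 30.9% ± 4.51 in Ighd-negative cells, and 14.7% ± 5.12 and 40.0% ± 10.6 of Igkv UMIs. Each of these 4 values was higher in Ighd-negative cells in 4 of 4 libraries, with an exact paired permutation p of 0.13, again the smallest possible. The order did not hold for Ighv without the Jchain-rich cells: Ighd-positive cells were at 53.9, 42.1, 45.5 and 44.1 CPM, against 30.8, 48.0, 28.2 and 29.4 CPM in Ighd-negative cells from which precursor-range cells (at least 2 UMIs of Igll1 and Dntt together) were left out too. For Igkv the same cells were at 91.6, 83.9, 80.9 and 73.3 CPM, against 95.4, 132, 104 and 100.1 CPM. Precursor-range cells were left out of the Ighd-negative class only, and had 2.71, 9.21, 23.1 and 7.11 Igkv CPM. The Ighd-negative Igkv values are lower with them, so these values do not give the order of the whole classes. Ighd-negative cells were also fewer, and the part of cell number in the share of the most abundant segment was not tested. Counted by detections in cells, the effective number of Igkv segments, computed over detections in the same way, was 34.7, 27.01, 32.1 and 27.7 in Ighd-positive and 33.3, 36.0, 31.1 and 33.0 in Ighd-negative cells. The share of cells with any V UMI differed less between the classes: 25.8% ± 3.14 against 21.3% ± 1.62 for Ighv, and 37.3% ± 1.42 against 41.2% ± 3.40 for Igkv (exact p = 0.25 for both).

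Much of the V segment signal lay in cells rich in Jchain. Cells with at least 10 Jchain UMIs numbered 42 of 3539 in all: 9 (0.834%, 0.382 to 1.58), 4 (0.802%, 0.219 to 2.04), 10 (0.976%, 0.469 to 1.79) and 19 (2.03%, 1.23 to 3.15) in B12+Butyrate, B12, Butyrate and Control. They carried 47.4% of all Ighv and 54.4% of all Igkv UMIs, and 35 of them were Ighd-negative. Their V UMIs per cell ran from 4 to 511 with a median of 63.5, while the other 3497 cells had a median of 1 and a maximum of 19. No cell had 10 to 19 Jchain UMIs and 1 cell had 5 to 9, so few cells lie near the threshold. Median depth of the Jchain-rich cells was 20413 UMIs, and 1 Control cell had 105265. The heavy constant region with most UMIs was Ighm (IgM) in 37 cells, an Igha (IgA) gene in 4 and an Ighg (IgG) gene in 1, and 3 cells had more Iglc1 (lambda) than Igkc (kappa) UMIs. In Control the share of these cells was highest, and its interval overlapped those of the other 3 libraries.

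**Figure D2:**
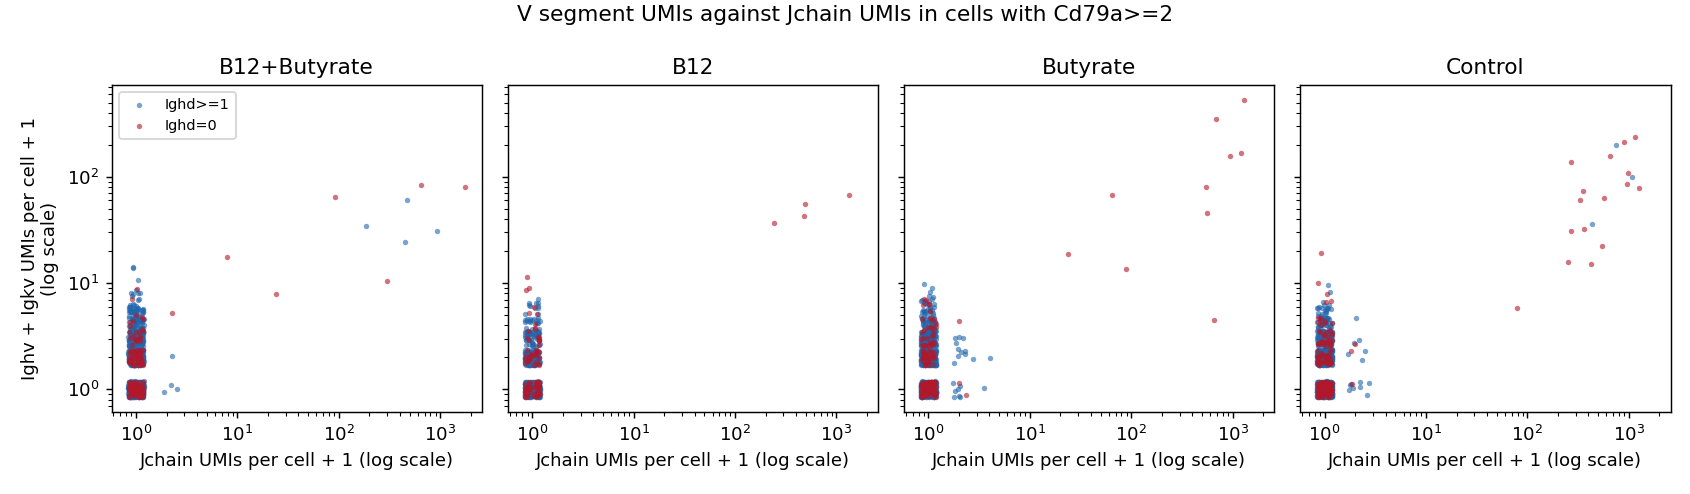
Ighv plus Igkv UMIs against Jchain UMIs per cell, both plus 1 on log scales with random jitter, in each library. Cells with at least 10 Jchain UMIs form a separate group that reaches 511 V segment UMIs, and the other cells do not pass 19.

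Of the 42 Jchain-rich cells, 32 had both a single Ighv and a single Igkv segment, in 17 different pairs. Repeated pairs held 20 of these 32 cells. None of the 42 barcodes was listed in any other library, so no repeat across libraries comes from a shared barcode.

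The Ighv9-3/Igkv3-5 pair was held by 7 cells: 1 in B12+Butyrate, 1 in B12, 1 in Butyrate and 4 in Control. It was the only pair found in all 4 libraries. Each cell expressed Ighm, had no Ighd UMI, and held 14 to 62 Ighv9-3 and 18 to 38 Igkv3-5 UMIs. In Ighd-positive cells Ighv9-3 was detected in 1.20%, 0.739%, 0.347% and 1.20% of cells. With called doublets removed, 5 of the 7 cells were left.

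The Ighv11-2/Igkv14-126 pair was held by 5 cells, 1 in Butyrate and 4 in Control, with none in B12+Butyrate or B12. This heavy and light combination is known from mouse B-1a cells, a self-renewing B cell type, where it forms antibodies that bind phosphatidylcholine. The Butyrate cell had 84 Ighv11-2 and 427 Igkv14-126 UMIs, and the Control cells had 18 to 53 and 56 to 188. In the Ighd-positive cells of all libraries together, Ighv11-2 had 7 UMIs in 6 cells. The counts of 0 of 9 Jchain-rich cells in B12+Butyrate and 0 of 4 in B12 allow shares of up to 33.3% and 75.0%, taken as 3 counts of the total.

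The Ighv14-4/Igkv6-20 pair was held by 4 cells, 3 in B12 and 1 in Control, with 6 to 14 Ighv14-4 and 19 to 77 Igkv6-20 UMIs. The 3 B12 cells were 3 of that library's 4 Jchain-rich cells. With called doublets removed, 1 of the 4 cells was left. A further B12+Butyrate cell had 2 Ighv14-4 and 8 Igkv6-20 UMIs and fell under the 3-UMI minimum. Ighv1-81/Igkv4-59 occurred in 2 cells of B12+Butyrate, and Ighv5-16/Igkv6-20 in 2 cells of Control. The other 12 pairs were seen in 1 cell each. Among these, Ighv8-8/Igkv8-16 rests on 3 Igkv UMIs in a Control cell with 3859 Iglc1 and 81 Igkc UMIs. It may therefore not be the pair of chains that cell makes. Ighv8-5/Igkv1-110 rests on 3 UMIs of each segment.

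**Figure D3:**
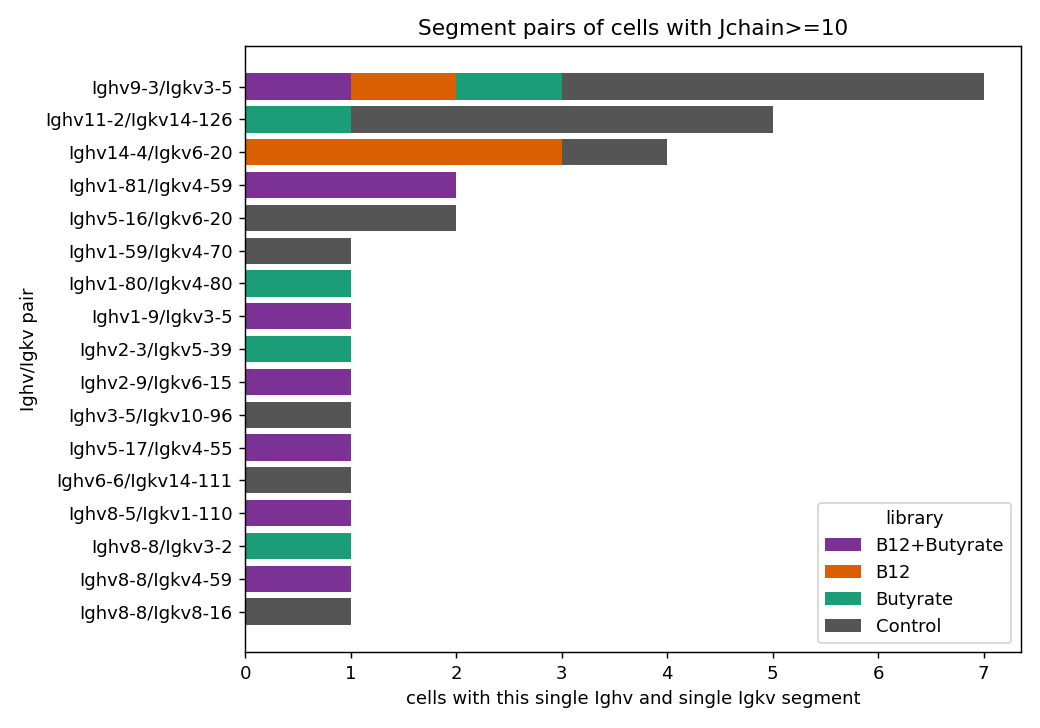
Number of Jchain-rich cells (at least 10 Jchain UMIs) that held each pair of a single Ighv and a single Igkv segment, coloured by library. Ighv9-3/Igkv3-5 reached 7 cells over 4 libraries, Ighv11-2/Igkv14-126 reached 5 over 2 and Ighv14-4/Igkv6-20 reached 4 over 2.

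Cells with UMIs of a second segment at similar level were rare in this group. A Butyrate cell had 73 UMIs of Igkv5-45 and 61 of Igkv2-112, beside 32 of Ighv2-9. Another Butyrate cell had 8 UMIs each of Ighv1-80 and Ighv1-81. A Control cell with 8357 Iglc1 and 111 Igkc UMIs had 37 UMIs of Ighv9-4 and no Igkv UMI.

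The class difference was also tested per segment with edgeR's quasi-likelihood test on UMIs summed per library and class, with library as a block and Benjamini-Hochberg adjustment over all genes. Of the 343 segments, 34 reached the minimum of 50 UMIs over the 8 sums. In Ighd-positive against Ighd-negative cells 1 segment was higher and 15 were lower at an adjusted p under 0.05, where 7.96% of the 12317 genes tested were higher and 8.92% lower. The median log2 ratio was -2.58 over the 34 segments and -0.0048 over all genes. The median over segments was 0.99 with no minimum, over 221 segments of which 78 were negative, and 0.06 over 13 segments with the Jchain-rich cells left out of both classes. A segment that passed the minimum only through 1 class had to differ, so these counts describe the segments that passed and not the whole family. DESeq2 called 4 of the 15 lower (Ighv8-8, Ighv9-3, Igkv3-2 and Igkv3-5) and none higher, with 9 segments lower and 0 higher at an unadjusted p under 0.05.

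The values of the lower segments show how few cells carried them. More than 50% of the Ighd-negative UMIs came from 1 cell for 10 of the 15, and more than 90% came from Jchain-rich cells for 12 of the 15. Ighv9-3 was higher in Ighd-negative cells of all 4 libraries by CPM, with 15, 4, 4 and 11 UMIs in Ighd-positive and 36, 35, 40 and 136 UMIs in Ighd-negative cells of B12+Butyrate, B12, Butyrate and Control. Igkv14-126 had 6, 2, 1 and 7 UMIs in Ighd-positive and 1, 1, 427 and 436 in Ighd-negative cells. Igkv4-80 had 1 UMI in Ighd-positive cells, in Butyrate, and 1, 0, 108 and 20 UMIs in Ighd-negative cells. Ighv11-2 had 2, 0, 2 and 3 UMIs in Ighd-positive and 0, 0, 84 and 116 in Ighd-negative cells. Ighv3-5 had no UMI in Ighd-positive cells and 1, 0, 0 and 78 in Ighd-negative cells, with 78 from 1 Control cell. Ighv6-6, the segment called higher, had 8, 1, 3 and 40 UMIs in Ighd-positive cells and none in Ighd-negative cells, and 36 of the 40 came from 1 Jchain-rich Control cell. Without Control, Butyrate or B12+Butyrate it was under the minimum of 50 UMIs and was not tested. Each of these segments reached the minimum through 1 class alone, so no p-value is given for it. Fewer cells of a kind and less RNA per cell cannot be told apart in these sums.

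With the Jchain-rich cells left out of both classes, an alternative chosen after the data were seen, 13 segments were tested and 1 was called, Igkv5-39, which was lower in Ighd-positive cells. Of all genes, 7.35% were lower and 6.29% higher. Igkv5-39 had 12, 2, 19 and 7 UMIs in Ighd-positive cells and 17, 0, 22 and 17 UMIs in Ighd-negative cells of B12+Butyrate, B12, Butyrate and Control. As CPM these were 1.81, 0.746, 2.92 and 1.24 against 11.8, 0, 18.0 and 11.6. The Ighd-negative level was above the Ighd-positive level in all libraries but B12, which had 89 Ighd-negative cells of this kind. The log2 ratio was -2.65 ± 0.414 (SE), and it ran from -2.78 to -2.44 with each library left out in turn. Its Ighd-negative UMIs reached the minimum on their own and its Ighd-positive UMIs did not. The call is therefore no independent support, and no p-value of this setting is given for it. With all cells kept, DESeq2 did not call it (adjusted p = 0.0682). Igkv1-110, Igkv1-117, Igkv2-109 and Igkv2-107 were not called, with edgeR adjusted p values of 0.172, 0.745, 0.847 and 0.683.

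The Ighd-negative cells with Igkv5-39 were few, and their other counts were looked at. There were 21 of them with fewer than 10 Jchain UMIs, with up to 7 Igkv5-39 UMIs each, and 17 of the 21 had no other Igkv UMI. Zbtb20, a zinc finger transcription factor, was chosen after the counts of these cells were seen. Its values in the same cells are a description and not a check. Zbtb20 had at least 10 UMIs in 19 of the 21, counted over all libraries. Of Ighd-negative cells with fewer than 10 Jchain UMIs, 80, 25, 59 and 74 had as many in B12+Butyrate, B12, Butyrate and Control. Fewer Zbtb20 UMIs were found in 79, 64, 91 and 93. The median was 28, 21.5 and 13.5 Zbtb20 UMIs in cells with Igkv5-39 in B12+Butyrate, Butyrate and Control, and 9, 7 and 7 in Ighd-negative cells without it. Igkv5-39 was detected in 5% (1.38 to 12.3), 0% (0 to 13.7), 13.6% (6.04 to 25.0) and 9.46% (3.89 to 18.5) of Ighd-negative cells with at least 10 Zbtb20 UMIs in B12+Butyrate, B12, Butyrate and Control. In Ighd-negative cells with fewer, it was detected in 1.27% (0.032 to 6.85), 0% (0 to 5.6), 0% (0 to 3.97) and 1.08% (0.0272 to 5.85). In Ighd-positive cells the shares were 1.12%, 1.23%, 3.52% and 2.13% with at least 10 Zbtb20 UMIs and 0.779%, 0.308%, 0.940% and 0.194% with fewer. Ighd-negative cells with at least 10 Zbtb20 UMIs were deeper, with median UMIs of 6633 to 8246 against 4010.5 to 4897, and the part of depth in this difference was not tested.

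**Figure D4:**
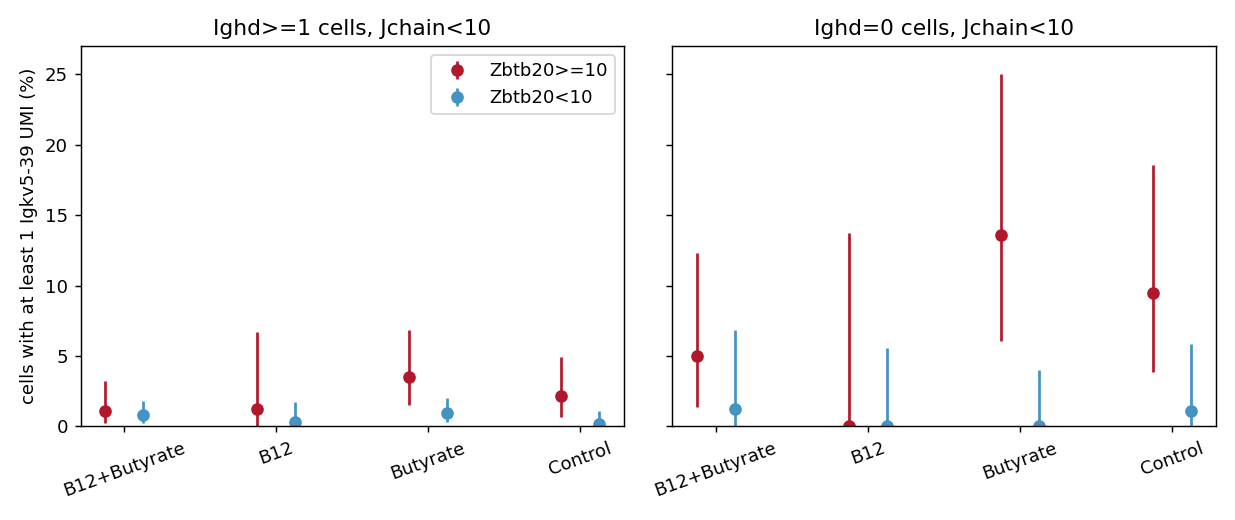
Share of cells with at least 1 Igkv5-39 UMI, in cells with at least 10 (red) and fewer than 10 (blue) Zbtb20 UMIs, for Ighd-positive (left) and Ighd-negative (right) cells with fewer than 10 Jchain UMIs. Points are libraries and bars exact 95% binomial intervals. The Ighd-negative, Zbtb20-rich cells of Butyrate reach 13.6% and those of Control 9.46%. Zbtb20 was chosen after the counts of these cells were seen.

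Of 29 listed genes of the receptor, of recombination and of B cell regulation, 28 were in the files and 27 were tested. In Ighd-positive cells edgeR called 4 of the 27 higher and 13 lower, where 7.96% and 8.92% of all genes were, and 10 were not called. With the Jchain-rich cells left out of both classes, added after the data were seen, 3 were higher and 10 lower, against 6.29% and 7.35% of all genes, and 21 of the 27 had the same call as before. Those higher included Pax5, the regulator of B cell identity, at 874 against 568 CPM (log2 ratio 0.57, edgeR adjusted p = 0.000459), and Syk, a kinase downstream of the receptor (0.31, edgeR adjusted p = 0.0155). Those lower included Rag1, which cuts DNA for recombination, at 6.34 against 44.4 CPM (-2.80, edgeR adjusted p = 1.27e-06), and Dntt, which adds bases at junctions, at 26.4 against 137 CPM (-2.49, edgeR adjusted p = 4.08e-06). Jchain itself was at 182 against 3639.9 CPM and Igkc at 4919.9 against 35459.9 CPM. Without the Jchain-rich cells Igkc, Ighm, Xbp1 and Syk were not called (edgeR adjusted p = 0.655, 0.435, 0.411 and 0.0997). Ebf1, not called with all cells, was lower (log2 ratio -0.38, edgeR adjusted p = 0.00314). Jchain is counted among the 27, but it set which cells were left out. Its loss of the call was therefore fixed in advance, and no p-value is given for it. Pax5 was higher in that setting too (log2 ratio 0.42, edgeR adjusted p = 0.00272). Rag1 and Dntt were lower (log2 ratios -2.93 and -2.63, edgeR adjusted p = 1.54e-07 and 4.02e-07). Precursor-range Ighd-negative cells numbered 27, 12, 19 and 20 in B12+Butyrate, B12, Butyrate and Control, and held 9, 2, 0 and 2 Ighv and 1, 1, 6 and 2 Igkv UMIs.

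Between treatments, usage in Ighd-positive cells overlapped closely. The Morisita overlap of Igkv detections, which is near 1 for equal usage, was 0.977 for B12 and Control, 0.99 for Butyrate and Control, 0.988 for B12+Butyrate and B12, and 0.982 for B12+Butyrate and Butyrate. For Ighv it was 1.14, 1.05, 1.07 and 0.980. Values above 1 occur by sampling when few cells share segments. A segment was counted where either library reached 20 CPM and called where the log2 ratio at a pseudocount of 10 CPM was past 2-fold. In Ighd-positive cells this named 1 of 1 segment in B12 against Control (0.236% of all genes), 1 of 1 in Butyrate against Control (0.196%), 0 of 0 in B12+Butyrate against B12 (0.267%) and 0 of 0 in B12+Butyrate against Butyrate (0.0759%). The segment was Igkv14-111, with 6 UMIs in B12, 8 in Butyrate and 143 in Control, and 133 of the 143 came from 1 Jchain-rich cell.

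In Ighd-negative cells 10 of 12 segments passed 2-fold in B12 against Control (1.85% of all genes), 16 of 19 in Butyrate against Control (1.67%), 4 of 7 in B12+Butyrate against B12 (1.98%) and 11 of 14 in B12+Butyrate against Butyrate (1.39%). A segment entered only where 1 of the libraries reached 20 CPM, which the UMIs of 1 Jchain-rich cell can give, so the segments' shares cannot be read against those of all genes. B12 and Butyrate share the Control library in the first and second comparisons, and B12+Butyrate is shared in the others. Ighv11-2 had no UMI in B12 and 116 in Control, and 84 in Butyrate and 116 in Control. Igkv6-20 had 105 UMIs in B12 and 53 in Control, and 9 in B12+Butyrate and 105 in B12. The library totals behind these values include the few Jchain-rich cells described above: 427 of the 427 Igkv14-126 UMIs of Butyrate and 340 of its 362 Igkv5-39 UMIs came from 1 cell each. The differences have no replicate check. The Morisita overlap of Ighv in Ighd-negative cells was 0.639, 0.919, 0.797 and 0.944 for the 4 comparisons, and that of Igkv was 0.933, 1.07, 1.03 and 1.01.

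V segment UMIs in cells that should lack them give a view of the background. In neutrophils (no Cd79a or Cd79b UMI and at least 20 S100a8 UMIs; 4325, 4835, 2828 and 4136 cells) an Ighv UMI was found in 3.40%, 2.40%, 2.97% and 2.61%, with median depths of 14040, 13605, 15041.5 and 13488.5 UMIs. An Igkv UMI was found in 0.139%, 0.0620%, 0.177% and 0.193%. Both shares lie far under the Ighd-positive shares above, in deeper cells. T cells, chosen by Cd3e and also without Cd79a or Cd79b UMIs, had an Ighv UMI in 0% to 1.64% and an Igkv UMI in 0% to 0.820% of cells. Leaving out barcodes with Cd79a or Cd79b selects against RNA shed by B cells, so these shares can understate the background from B cells. In neutrophils 300 of 486 Ighv UMIs (61.7%) were of Ighv1-41, an annotated pseudogene, which had 4 UMIs in all 2939 Ighd-positive cells.

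**Figure D5:**
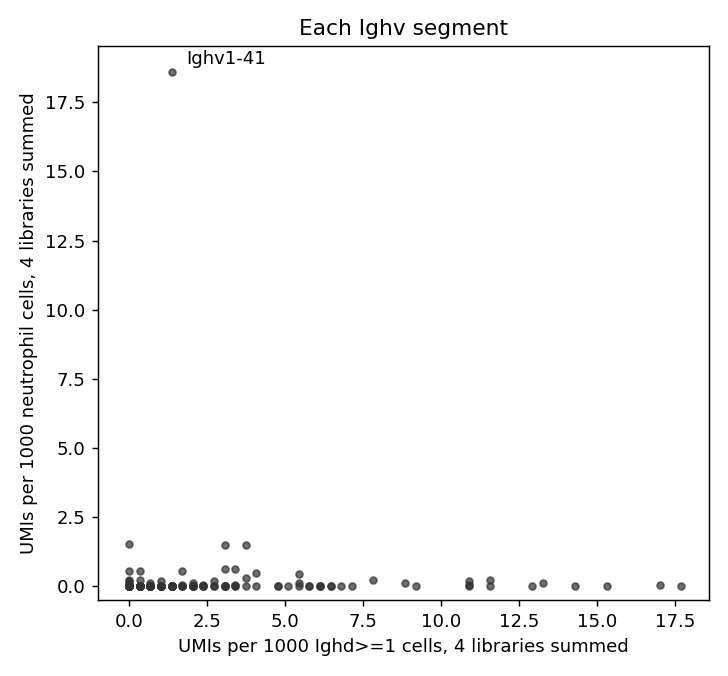
UMIs of each Ighv segment per 1000 neutrophils (vertical) against UMIs per 1000 Ighd-positive cells (horizontal), summed over the 4 libraries. Ighv1-41 stands at 18.6 per 1000 neutrophils and 1.36 per 1000 Ighd-positive cells, and every other segment lies below 2 per 1000 neutrophils.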

How the data were processed

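Live CD45.2+ marrow cells were read with the 10x Genomics Chromium 3′ chemistry. The deposited values are raw UMI counts of each gene in each barcode; the file headers name Cell Ranger 7.1.0, and the submitters' processing notes name GRCm39. Intron counting is not stated. The 4 libraries held 7932 to 9688 barcodes and 95892397 to 123435815 UMIs. Members were matched by identifier to GENCODE M21 (343 of 343) for type and sequence. Members, lists and tests were chosen with earlier results of these data known. Doublets were kept, and removing those a caller marked (simulated doublets, 50 neighbours, a rate of 0.8% per 1000 cells; 369 to 613 cells per library) was an alternative.

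UMIs were summed per library and Ighd class and tested with edgeR 4.0.16 in R 4.3.3 (TMM, library as block, at least 50 UMIs over the 8 sums, Ighd and Cd79a left out), after a trial on simulated counts. DESeq2 1.42.0 was an alternative. Both classes of a library come from the same cells' pool, which is the pairing, and p-values measure the spread between these 4 libraries. Treatments were compared without tests. The rule for named segments took the 5 with the highest mean share of single-segment cells per chain and class, the top segment of each library, class and chain by cells and by UMIs, the segments with the largest differences between libraries among those in at least 10 single-segment cells, and the 5 largest called class changes each way; segments led by detection, co-detection or background were named after their values were seen. Share intervals are Clopper-Pearson. Further software was Python 3.11.15 with scipy 1.17.1, edlib 1.3.9.post1 (identity), scikit-learn 1.9.0 and matplotlib 3.10.9.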

Additional observations from a re-analysis of the deposited data

Results flagged for a closer look

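A V segment signal appeared in cells outside the B cell comparisons. Ighv1-41 had 99 UMIs in neutrophils of B12+Butyrate, 74 in B12, 58 in Butyrate and 69 in Control, which was 60.0% to 65.2% of their Ighv UMIs, and 3, 0, 1 and 0 UMIs in Ighd-positive cells of the same libraries.

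Cells with fewer than 2 Cd79a UMIs and at least 10 Ighv or Igkv UMIs numbered 1 in B12+Butyrate, 1 in B12, 1 in Butyrate and 3 in Control, and were not used above. The B12+Butyrate cell held Ighv1-81 (12 UMIs) and Igkv4-59 (35 UMIs), the pair also seen in 2 Jchain-rich cells of that library. Jchain UMIs were 739 in that cell, 252 in the B12 cell, 891 in the Butyrate cell, and 50, 1 and 202 in the Control cells. The counts, shares and pairs of Jchain-rich cells above therefore leave out cells rich in Jchain but low in Cd79a.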

How the results depend on the processing

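The number of segments called higher in Ighd-positive cells (1 as reported) was 0 with DESeq2, 5 with no filter, 9 with at least 1 Cd79a UMI, 0 with Jchain-rich cells left out of both classes, and 0 to 1 with each library left out. The number called lower (15) was 4 with DESeq2, 23 with no filter, 9 with doublets removed, 1 with Jchain-rich cells left out of the Ighd-negative class or of both, and 11 to 17 with each library left out. With Jchain-rich cells left out in either way, only 3 of the 15 still reached the minimum and were tested. With no filter most segments tested were near 0, and p-values of that fit are not relied on. With no replicate block, which drops the pairing of classes by library, 0 were higher and 13 lower. The mean single-segment share was, for Ighv in Ighd-positive cells (87.1%), 100% when more than 50% of UMIs sufficed; for Igkv in Ighd-positive cells (56.4%), 79.0% under that rule and 75.0% after thinning to 2000 UMIs; for Ighv in Ighd-negative cells (91.8%), 62.7% when 100% was required and 79.2% without Jchain-rich cells; and for Igkv in Ighd-negative cells (73.1%), 65.0% from 2 UMIs, 80.6% from 5 UMIs, 92.2% at more than 50%, 52.5% at 100% and 55.7% without Jchain-rich cells. That last value lies at the Ighd-positive mean. With each library left out these shares ranged over 82.8% to 92.8%, 53.0% to 61.0%, 89.0% to 94.6% and 70.8% to 74.7%, and the effective number of Igkv segments over 7.00 to 13.1 in Ighd-positive and 7.71 to 17.5 in Ighd-negative cells. The Ighv1 share of single-segment cells became 100% after thinning in B12+Butyrate, 100% from 5 UMIs and 0% from 4 Cd79a UMIs in B12, 100% from 5 UMIs and 0% after thinning in Butyrate, and 0% from 5 UMIs in Control. The top Ighv share became 50% after thinning in B12+Butyrate, 100% from 5 UMIs in B12, and 100% under either in Butyrate. The top Igkv share became 100%, 50%, 50% and 100% after thinning in B12+Butyrate, B12, Butyrate and Control, 75% from 5 UMIs in Butyrate, 24.1% from 2 UMIs in Control, and 11.8% in B12+Butyrate and 22.3% in Control as a share of summed UMIs. Few cells remain after thinning or at 5 UMIs. The Ighv9-3/Igkv3-5 pair (7 cells) kept 2 after thinning and 3 to 6 with each library left out. Ighv11-2/Igkv14-126 (5) kept 3 at 100%, 3 from 4 Cd79a UMIs, 1 after thinning and 1 to 5 with each library left out. Ighv14-4/Igkv6-20 (4) kept 1 at 100%, 0 after thinning, 1 with doublets removed and 1 to 4 with each library left out. Segments past 2-fold at a pseudocount of 50 CPM numbered, in Ighd-positive cells, 0 in B12 against Control and 0 in Butyrate against Control, and in Ighd-negative cells 6, 4, 2 and 4 in B12 against Control, Butyrate against Control, B12+Butyrate against B12 and B12+Butyrate against Butyrate. With no minimum level they numbered 2 in both Control comparisons of Ighd-positive cells and 7 in B12+Butyrate against B12 in Ighd-negative cells. Causes of these shifts were not tested, and depth, mostly 1 V UMI per cell, limits every share.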
